A study of Chlamydomonas reinhardtii with 18 samples.

Results

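The genes described here mostly encode motor and regulatory parts of the flagellar axoneme: dynein arms, the nexin-dynein regulatory complex, radial spokes and the central pair. They also include 10 assembly and transport genes and a separate group of DHC16, DIC5 and DIC6. They were chosen by symbol alone, as every gene whose symbol begins with RSP, DHC, DIC, DLC, DII, ODA, IDA, DRC, CPC or PF followed by a digit. This gave 67 of the 17693 genes in the deposited table, of which 4408 carry a symbol, and all 67 passed the filter on low values that kept 14731 genes, CPC2 through the tpt10b 0 h libraries alone. RNA of Chlamydomonas reinhardtii, a green alga that swims with a pair of flagella, was sequenced in 18 libraries, with 3 biological replicates for each of 6 groups. The mutant tpt10b, described as a knockout of CreTPT10 in the CC-4532 background, was sampled at 0 h in low light and after 24 h and 48 h of complete darkness, and WT (CC-4532) was sampled at the same times. Both genotypes grew to mid-log phase on TAP, a medium with acetate, in low light (30 µmol photons per square metre and second), and the 0 h samples were taken just before the move to darkness. The labels name a single mutant line and give no complemented strain among these groups. No group was kept in low light to 24 h or 48 h, so an effect of darkness and one of longer culture cannot be told apart.

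The axoneme is a ring of doublet microtubules around a central pair of single microtubules. Outer and inner dynein arms, motors built of heavy, intermediate and light chains, make neighbouring doublets slide, while the nexin-dynein regulatory complex links them. Radial spokes reach from each doublet towards the central pair and pass on the signals that shape the beat. Dyneins are preassembled in the cytoplasm by dedicated assembly factors and are carried into the flagellum by intraflagellar transport (IFT). In Chlamydomonas these genes are known to be switched on together when flagella are cut off and regrow.

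Levels are in TPM, a transcript's length-corrected share of its library, and differences are on the log2(TPM + 1) scale with the standard error of the fit, tpt10b minus WT or dark minus 0 h. A member was called higher or lower when limma gave an adjusted p under 0.05, with the Benjamini-Hochberg adjustment taken over all 14731 genes. Reads recovered from the TPM values amounted to 59603478 to 87965038 per library. Locus Cre08.g379350, assigned to CreTPT10 from background knowledge since the files do not name it, had 6.61 to 8.28, 1.28 to 2.94 and 5.59 to 6.53 TPM in tpt10b at 0 h, 24 h and 48 h, against 55.4 to 62.2, 32.8 to 43.9 and 47.4 to 85.4 TPM in WT. The 3 tpt10b 24 h libraries had reads in 15490 to 16231 genes, against 16594 to 16679 in the WT 24 h libraries. In WT 48 h replicate 2 the level was the lowest of its group for 65.6% of all tested genes and for 48 of the 67 members. Because TPM is a share, a shift in many genes moves the rest: at 0 h the median tested gene was 0.41 higher in tpt10b, and at 24 h it was 0.23 lower, so counts are also given after rescaling each library by its median-of-ratios factor, which brought these medians to -0.02 and 0.03. In a bulk culture, fewer cells with a transcript and less of it per cell cannot be told apart.

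The members were most abundant at 0 h, and more so in WT. Their summed level was 2959.6 ± 169, 1159 ± 62.7 and 1693 ± 23.1 TPM in tpt10b at 0 h, 24 h and 48 h, and 5040.4 ± 948, 1372 ± 80.4 and 1522 ± 89.5 TPM in WT (SD, n = 3 each). In single libraries the 0 h sum was 3064, 3049.7 and 2765 TPM in tpt10b, against 4146, 4940.1 and 6035 TPM in WT, so the genotypes did not overlap. At 24 h the tpt10b sums of 1132, 1230.1 and 1113 TPM lay below the WT sums of 1279, 1413 and 1423 TPM, and at 48 h the tpt10b sums of 1687, 1673 and 1718 TPM lay above the WT sums of 1574, 1418 and 1572 TPM. A pair of genes made up much of the dark sums. IDA5, conventional actin, which serves the whole cell and is also a subunit of inner arm dyneins, and RSP20, calmodulin, which is both a spoke protein and a general calcium sensor, held 37.1% to 39.4% of the sum in tpt10b at 0 h and 18.4% to 25.1% in WT. In darkness they held 58.3% to 69.6% in tpt10b at 24 h against 65.0% to 67.7% in WT. Without both, the mean sums were 1834, 407 and 581 TPM in tpt10b at 0 h, 24 h and 48 h, and 4009, 462 and 583 TPM in WT, so the dark sums of the genotypes lay close together once these genes were set aside.

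**Figure D1:**
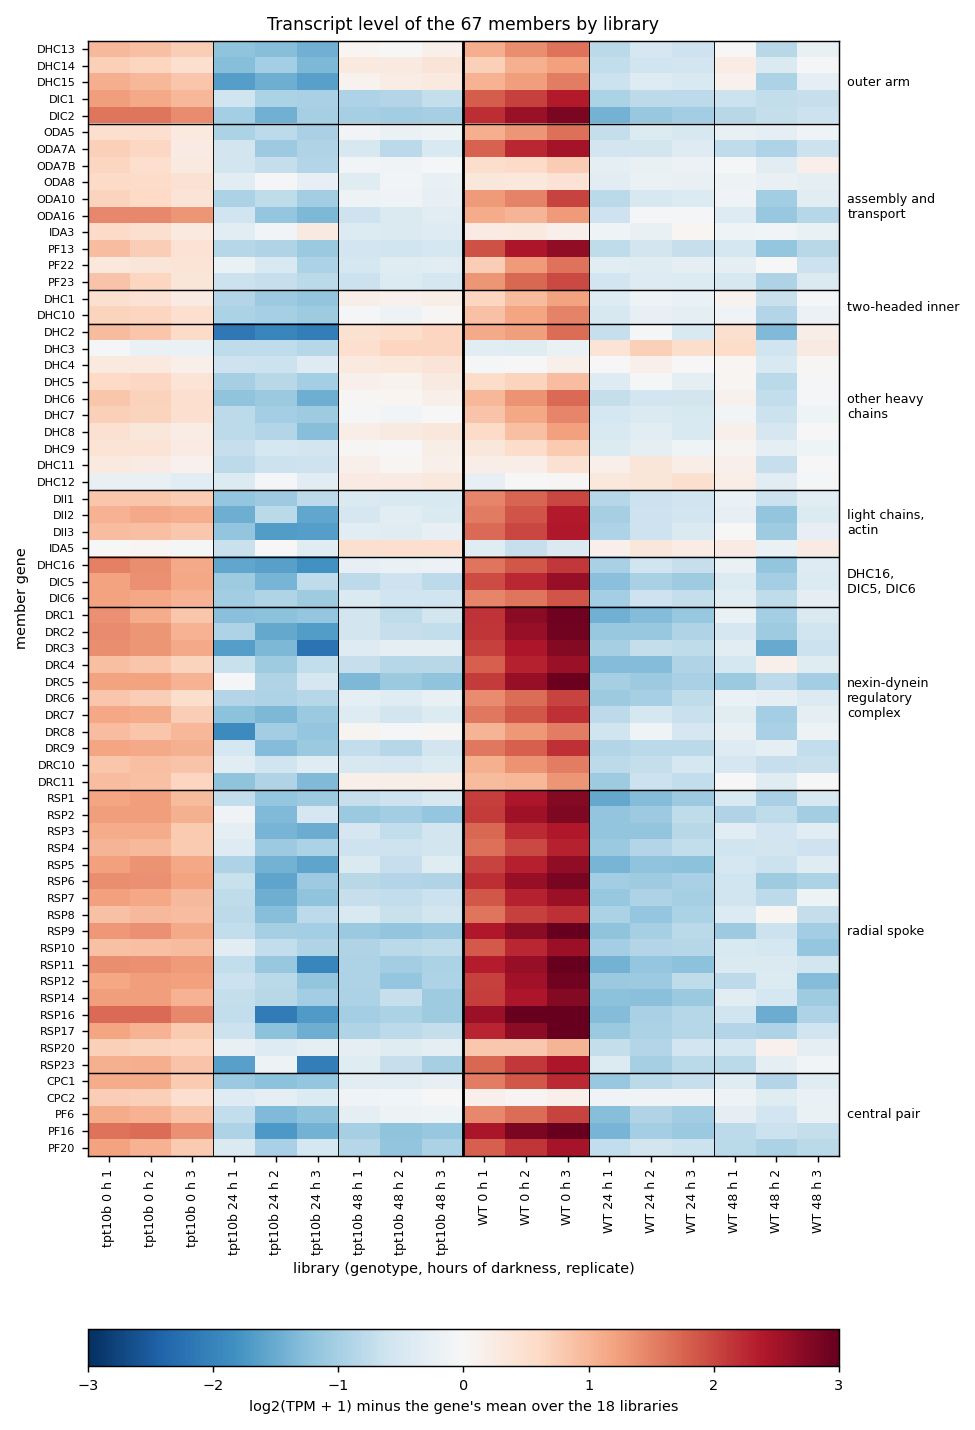
Level of each of the 67 members (rows, grouped by role) in each of the 18 libraries (columns, tpt10b left of WT, each by hours of darkness), as log2(TPM + 1) minus the gene's mean over all libraries. Most rows are highest in the 3 WT 0 h libraries and next in the 3 tpt10b 0 h libraries, whereas IDA5 follows another course.

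At 0 h, in low light, most of these genes were lower in tpt10b. Of 67 members, 50 were lower and 2 were higher, while 9.19% of all tested genes were lower and 50.8% were higher. The median member differed by -0.92, against 0.41 for the median of all tested genes. In 54 members every tpt10b library lay below every WT library, which was so for 11.4% of all tested genes, and in 7 members every tpt10b library lay above (63.6% of all). After rescaling, 60 members were lower and 1 was higher, with a median of -1.40, beside 3111 lower and 1948 higher of the 14731 genes. The WT 0 h libraries were themselves uneven for these genes: replicate 1 was the lowest of the group for 60 members and replicate 3 the highest for 65, whereas replicate 1 was the highest for 65.8% of all tested genes. The count of lower members stayed between 39 and 50 with any 1 of the 0 h libraries left out.

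**Figure D2:**
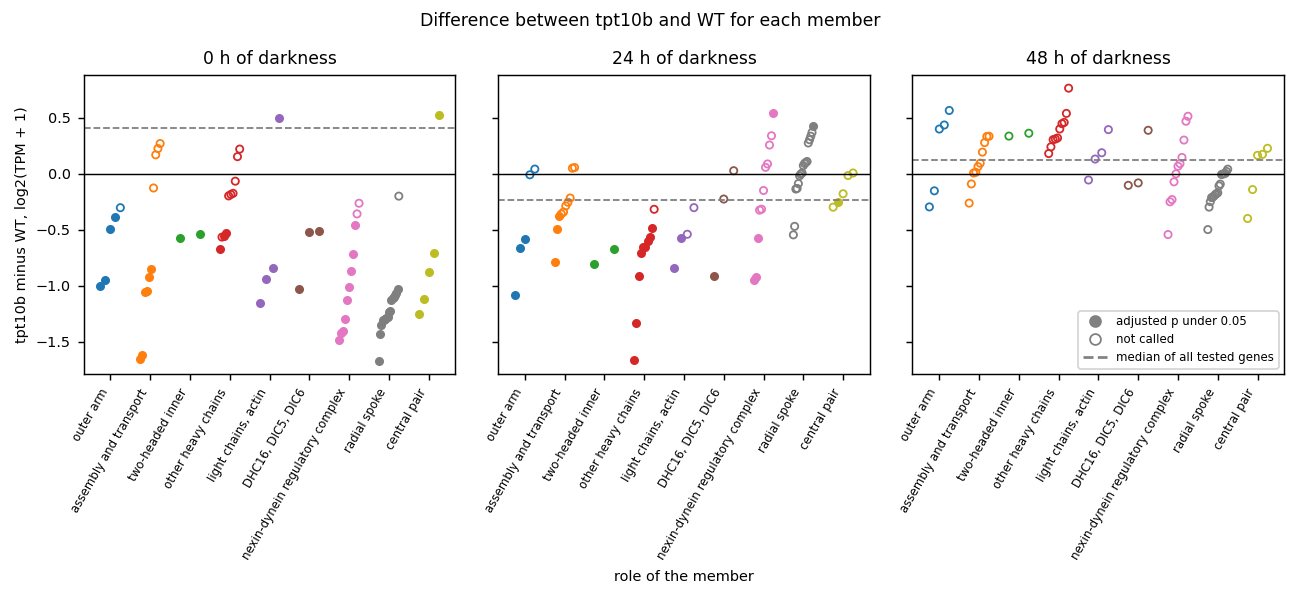
Difference between tpt10b and WT, on the log2(TPM + 1) scale, for each member by role (x axis) at 0 h, 24 h and 48 h of darkness; filled points had an adjusted p under 0.05, and the dashed line is the median of all tested genes. At 0 h most filled points lie between -0.4 and -1.7, at 24 h the filled points are mainly heavy chains, and at 48 h all points are open.

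Nearly all radial spoke genes were lower at 0 h. Of 17, 16 were lower in tpt10b, with a median difference of -1.24, and the median member stood at 40.9% of its WT level. In all 17 every tpt10b library lay below every WT library. RSP17 (Cre07.g340400), a stalk protein, had 14.8, 13.4 and 11.1 TPM in tpt10b, against 33.0, 44.0 and 57.1 TPM in WT, so the highest tpt10b library stood well under the lowest WT one. Its difference of -1.67 ± 0.20 (adjusted p = 1.24e-05, limma) was the largest fall in the module. RSP9 (Cre07.g330200), a protein of the spoke head, had 127, 133 and 112 TPM in tpt10b, against 270.5, 335 and 415 TPM in WT, a difference of -1.43 ± 0.15 (adjusted p = 4.29e-06). The spoke heads and stalks did not separate: the head genes RSP1, RSP4, RSP6, RSP9 and RSP10 differed by -1.06 to -1.43, and RSP3, which anchors the spoke to the doublet, by -1.11. RSP4 and RSP6 are closely related genes that lie next to each other in the RefSeq annotation, so reads could be split between them. The exception was RSP20, the calmodulin gene, with 538, 522 and 509 TPM in tpt10b, against 571, 573 and 664 TPM in WT. It was lower in every tpt10b library but did not pass the test (-0.20 ± 0.13, adjusted p = 0.188). After rescaling all 17 spoke genes were called lower, RSP20 among them, so this exception depends on the scale.

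The nexin-dynein regulatory complex and the central pair were also lower in tpt10b at 0 h. In the regulatory complex 9 of 11 genes were lower (median -1.01), and in all 11 the groups did not overlap. DRC1, DRC2 and DRC4, coiled-coil proteins at its base, differed by -1.49, -1.30 and -1.42. DRC5 (Cre01.g045350), a leucine-rich repeat subunit, had 28.5, 28.6 and 25.5 TPM in tpt10b, against 54.2, 77.9 and 98.3 TPM in WT. DRC8, an EF-hand protein, and DRC11, an AAA protein, did not pass the test, at -0.36 and -0.26. After rescaling all 11 genes of the complex were called lower, so both exceptions depend on the scale. Of the 5 genes grouped under the central pair, 4 were lower, from PF16 at -1.25 through PF20 at -1.12 and CPC1 at -0.88 to PF6 at -0.71. PF16 (Cre09.g394251), an armadillo repeat protein of the C1 microtubule, had 77.9, 81.0 and 65.1 TPM in tpt10b, against 140.2, 180.0 and 226 TPM in WT, with no overlap. CPC2, a subunit of a C1 projection, had 1.38, 1.35 and 1.04 TPM in tpt10b, against 0.581, 0.524 and 0.587 TPM in WT. It is 1 of the 2 members counted as higher (0.53 ± 0.09) and the single one after rescaling (0.26). Because only these tpt10b libraries took it past the filter of 1 TPM in 3 libraries, it had to stand higher there, and it is given as a description.

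Within the outer arm, the intermediate chains were lower by more than the heavy chains. DIC1 and DIC2, which tether the arm to the doublet, differed by -0.95 and -1.003. DIC2 (Cre12.g506000) had 69.5, 69.2 and 60.6 TPM in tpt10b, against 107, 137 and 163 TPM in WT, with no overlap. The heavy chains are the motors themselves. The gamma chain gene DHC15 (Cre11.g476050) had 26.4, 24.8 and 22.1 TPM in tpt10b, against 25.5, 30.1 and 36.4 TPM in WT, an overlap of the groups, and it was not called (-0.30 ± 0.20, adjusted p = 0.193). The alpha chain gene DHC13 (Cre03.g145127) had 20.6, 19.5 and 17.3 TPM in tpt10b, against 22.4, 27.7 and 33.0 TPM in WT (-0.50 ± 0.18, adjusted p = 0.0257). The beta chain gene DHC14 (Cre09.g403800) had 26.2, 25.01 and 22.6 TPM in tpt10b, against 26.5, 33.9 and 37.9 TPM in WT (-0.39 ± 0.16, adjusted p = 0.0437). In DHC13 and DHC14 the groups did not overlap, though the gap was narrow. After rescaling all 5 outer arm genes were called lower, DHC15 among them.

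The inner arm heavy chains gave a mixed picture at 0 h. DHC1 and DHC10, the heavy chains of the dimeric I1 dynein, were both lower, at -0.54 and -0.58. Of the 10 other heavy chain genes, only DHC6, DHC7 and DHC8 were called, at -0.67, -0.53 and -0.56. DHC3, DHC4 and DHC11, known as minor dyneins, differed by 0.15, 0.22 and -0.07 and were not called, and the first pair stood at -0.13 and -0.18 after rescaling. Over the 16 DHC genes 8 were lower, with a median of -0.44, while over the 51 other members 42 were lower, with a median of -1.05. After rescaling, 14 of the 16 DHC genes were lower, with a median of -0.98. The light chain gene DII1, which encodes the p28 subunit of monomeric inner arms, was lower at -0.94, with 114, 114 and 109 TPM in tpt10b against 178, 218 and 260.1 TPM in WT.

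IDA5 (Cre13.g603700), the actin gene, had 599.8, 629.7 and 579.7 TPM in tpt10b at 0 h, against 471, 372 and 444 TPM in WT. It was called higher in the TPM values (0.50 ± 0.15, adjusted p = 0.00868), but stood at -0.06 after rescaling, and lost its call without WT 0 h replicate 2 (0.40, adjusted p = 0.0528). Its direction thus depends on the scale too.

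Assembly and transport genes were divided at 0 h. Of 10, 6 were lower: ODA7A, PF13, PF22 and PF23, factors that assemble dynein in the cytoplasm, and ODA5 and ODA10, which belong to an accessory complex of the outer arm. ODA7A (Cre01.g029150) had 38.4, 35.8 and 27.6 TPM in tpt10b, against 81.0, 115 and 136 TPM in WT (-1.66 ± 0.18, adjusted p = 5.46e-06). PF13 (Cre09.g411450) had 10.8, 9.31 and 7.44 TPM in tpt10b, against 22.2, 32.2 and 38.1 TPM in WT (-1.62 ± 0.19, adjusted p = 8.18e-06). Both lay below WT in every library. ODA16, the adaptor that loads outer arms on IFT, IDA3, the adaptor for I1 dynein, and ODA8 were not called, at 0.27, 0.22 and 0.17, and in each of the 3 every tpt10b library lay above every WT library. After rescaling they stood at -0.27, -0.21 and -0.26, so their direction depends on the scale. DHC16 (Cre06.g250300), which by its known role is the heavy chain of the dynein that drives retrograde IFT and is not axonemal, was lower at -0.52, with 16.9, 15.4 and 12.6 TPM in tpt10b against 18.1, 21.8 and 26.3 TPM in WT.

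**Figure D3:**
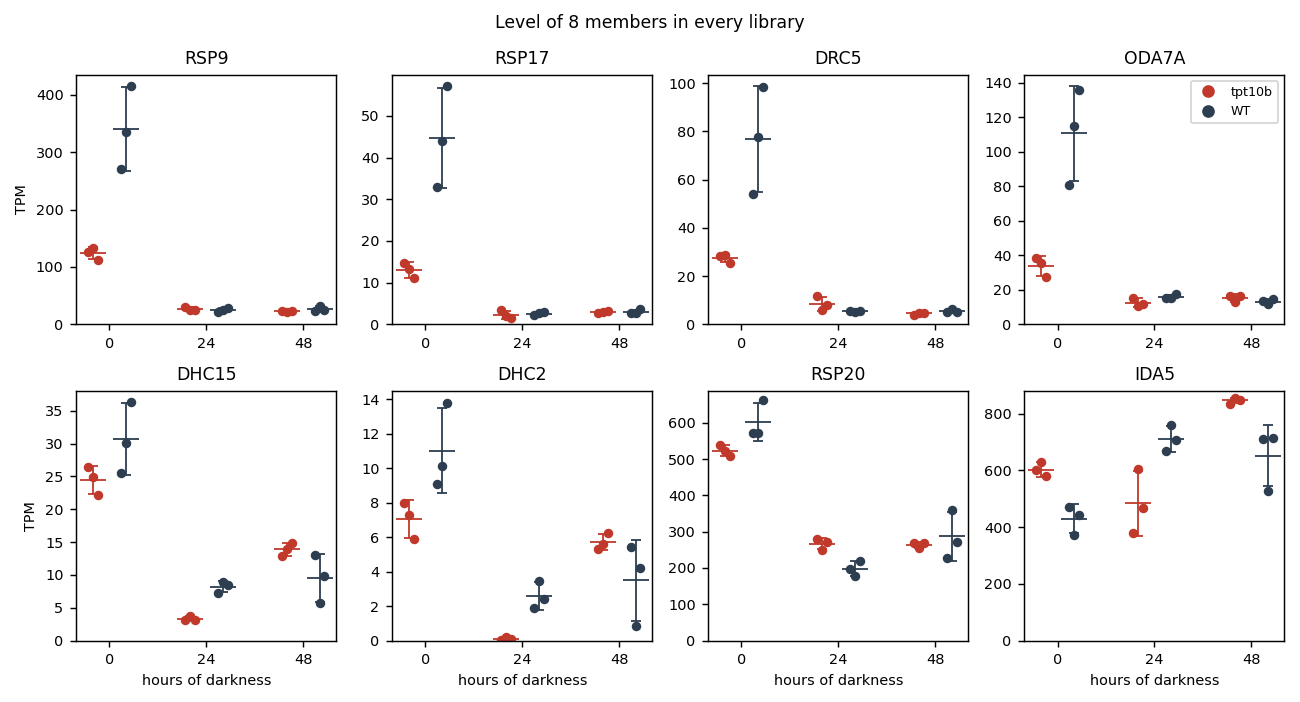
TPM of 8 members in every library (points) with the group mean and SD (bars, n = 3), tpt10b left of WT at 0, 24 and 48 hours of darkness, each panel with its own axis from 0. RSP9, RSP17, DRC5 and ODA7A are lower in tpt10b at 0 h, DHC15 and DHC2 are lowest in tpt10b at 24 h, and IDA5 is highest in tpt10b at 48 h, at 836 to 855 TPM.

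In WT, nearly the whole module was lower in darkness. After 24 h of darkness 62 of 67 members were lower than at 0 h and 3 were higher, beside 25.8% lower and 40.6% higher of all tested genes. The median member changed by -2.65, against 0.21 for the median of all tested genes. After 48 h, 63 were lower and 1 was higher, beside 32.4% lower and 37.7% higher of all, with a median of -2.30 among members. The counts of lower members were the same after rescaling, 62 and 63, beside 5031 and 5411 lower of the 14731 genes. Genes of cell division moved with the members: of 27, 20 were lower and 2 higher in WT at 24 h (median -1.34), and 19 and 2 at 48 h. Their part in the fall of the members was not tested.

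By role, the fall in WT at 24 h was largest in the radial spokes and smallest in the heavy chains. The median radial spoke gene changed by -3.49 and stood at 7.8% of its 0 h level, and the median gene of the regulatory complex changed by -2.67. RSP16 (Cre12.g511050), an HSP40 co-chaperone of the spoke stalk, had 7.07, 9.13 and 10.05 TPM in WT at 24 h, against 117, 163 and 196 TPM at 0 h, a change of -4.01 ± 0.28 (adjusted p = 1.3e-09). PF16 had 8.78, 11.7 and 10.97 TPM at 24 h, a change of -3.98, and RSP11 (Cre10.g465250) had 8.44, 10.3 and 9.85 TPM at 24 h, against 129.5, 154 and 203 TPM at 0 h. None of the 24 h libraries came near the 0 h range in these genes. RSP9 and DRC5 had the next largest falls at 48 h after RSP16, at -3.62 and -3.53, with 23.5, 32.2 and 24.2 TPM of RSP9 at 48 h and 4.97, 6.49 and 5.26 TPM of DRC5. Among the outer arm genes DIC2 changed by -3.74 and DIC1 by -2.92, while DHC13, DHC14 and DHC15 changed by -2.02, -1.63 and -1.77.

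Some heavy chains did not fall in WT. At 24 h the minor dynein gene DHC3 (Cre06.g265950) was higher, at 2.17, 2.87 and 2.39 TPM, against 0.899, 0.835 and 1.06 TPM at 0 h (0.84 ± 0.20, adjusted p = 0.00104). DHC12 was higher by 0.46, a call lost after rescaling (0.27), and DHC4 and DHC11 were not called, at 0.02 and -0.04 (-0.18 and -0.22 after rescaling). Non-member genes of at least 10000 bp rose too in WT at 24 h, with 78.0% of 186 called higher and a median of 0.89, against 38.6% and 0.18 among the 11471 under 3000 bp. IDA5 was higher at both times, by 0.73 ± 0.15 at 24 h and 0.59 ± 0.15 at 48 h, with 668, 761 and 706 TPM at 24 h and 712, 527 and 714 TPM at 48 h.

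In tpt10b the module was lower in darkness as well, from a lower start. After 24 h, 66 of 67 members were lower than at 0 h and 0 were higher, beside 57.1% lower and 18.1% higher of all tested genes. At an unadjusted p under 0.05 the count of differing members was 66. After rescaling 62 were lower and 1 was higher, and by limma-voom 63 and 1. The median member changed by -1.94, against -0.53 for the median of all tested genes. After 48 h, 56 were lower and 3 higher, beside 44.1% lower and 30.1% higher of all, with a median of -1.31 among members. CPC2 counts among the lower members at both times, but it passed the filter through tpt10b 0 h alone, so its fall was fixed in advance. Of the 27 cell division genes 25 were lower at 24 h (median -1.43), and 16 were lower and 5 higher at 48 h. After rescaling 19 of them were lower and 1 higher at 24 h, and 12 were lower and 6 higher at 48 h. Over all 14731 tested genes the rescaled counts were 5632 lower and 5018 higher at 24 h, and 5354 lower and 5540 higher at 48 h. RSP16 had 10.9, 3.65 and 5.14 TPM in tpt10b at 24 h, against 63.6, 63.9 and 53.0 TPM at 0 h (-3.13 ± 0.28). DRC3 (Cre12.g531500), a leucine-rich repeat subunit of the regulatory complex, had 4.58, 5.80 and 2.72 TPM at 24 h, against 45.0, 42.5 and 37.6 TPM at 0 h (-3.03 ± 0.25). DHC16 had 1.11, 1.00 and 0.782 TPM at 24 h (-3.02 ± 0.21), and at 48 h it had 4.28, 4.45 and 4.54 TPM. IDA5 was called lower at 24 h (-0.34), but stood at 0.29 after rescaling and was not called there. At 48 h the largest falls were those of PF16 (-2.67), RSP16 (-2.62) and DIC2 (-2.56), and the members higher than at 0 h were IDA5, DHC3 and DHC12.

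**Figure D4:**
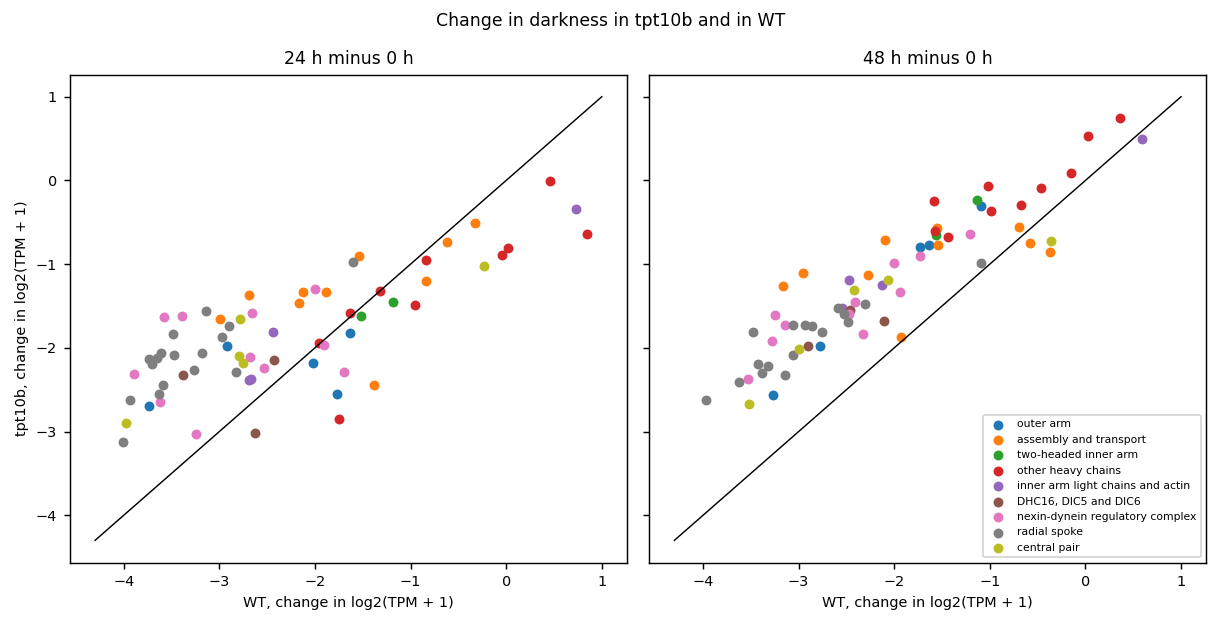
Change of each member between 0 h and 24 h (left) or 48 h (right) on the log2(TPM + 1) scale, tpt10b on the y axis and WT on the x axis, coloured by role; the line marks equal change. Radial spoke genes lie above the line at both times, with changes near -3.5 in WT and -2.1 in tpt10b at 24 h.

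The change from 0 h to the dark times differed between the genotypes in most members when the difference itself was tested. The interaction at 24 h, the change in tpt10b minus the change in WT, was positive in 32 members and negative in 9, beside 6.25% positive and 57.9% negative of all tested genes, and the medians were 0.63 and -0.65. At 48 h it was positive in 50 and negative in 1, CPC2, beside 9.02% and 26.4% of all. After rescaling the counts were 50 and 2 at 24 h and 59 and 0 at 48 h. Of all 14731 tested genes, 3640 were then positive and 2909 negative at 24 h, and 2515 and 1288 at 48 h. Both interactions use the 0 h libraries that also give the 0 h genotype comparison, so a member lower in tpt10b at 0 h tends to a positive value. CPC2, which passed the filter through tpt10b 0 h alone, is among the negative members at both times and is given as a description. At 24 h the positive calls included 15 of 17 radial spoke genes, 6 of 11 regulatory complex genes and 0 of 16 DHC genes, and the negative ones 6 DHC genes. For the DHC genes this depended on the scale, since after rescaling 6 were positive and 1 was negative. Before rescaling, 87.6% of the 186 non-member genes of at least 10000 bp were negative at 24 h. Their median was -1.02, and that of the DHC genes was -0.33. Without tpt10b 0 h replicate 1 the negative members at 24 h numbered 5. DRC5 had the largest positive value (1.95 ± 0.29, adjusted p = 6.23e-05), ahead of DRC4 (1.76) and RSP2 (1.65).

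At 24 h of darkness the members lower in tpt10b were mainly heavy chains. Of 67 members 24 were lower in tpt10b and 2 were higher, beside 34.8% lower and 5.76% higher of all tested genes, so the share of members called was near that of all genes. The median member differed by -0.29, against -0.23 for all. Every tpt10b library lay below every WT library in 26 members and above in 3, beside 41.0% and 7.70% of all. By role the members parted: 15 of 16 DHC genes were lower (median -0.67), DHC9 being the one not called at -0.32, while 9 of the 51 others were lower (median -0.13). After rescaling 11 of 16 DHC genes and 5 of the 51 others were lower, and 7 of the others were higher. Of all 14731 tested genes, 3108 were then lower and 2869 higher.

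The 3 outer arm motors were all lower in tpt10b at 24 h. DHC15 had 3.10, 3.72 and 3.18 TPM in tpt10b, against 7.29, 8.95 and 8.43 TPM in WT (-1.09 ± 0.20, adjusted p = 0.000589). DHC13 had 3.76, 3.55 and 3.01 TPM in tpt10b, against 5.22, 6.80 and 6.11 TPM in WT (-0.66 ± 0.18, adjusted p = 0.00836). DHC14 had 5.93, 7.29 and 5.52 TPM in tpt10b, against 9.03, 10.1 and 10.2 TPM in WT (-0.58 ± 0.16, adjusted p = 0.00818). In all 3 the groups did not overlap, yet after rescaling only DHC15 kept an adjusted p under 0.05 (0.00217, against 0.0708 and 0.161). Their partners DIC1 and DIC2 stood at -0.01 and 0.04. DHC2 (Cre09.g392282), a monomeric inner arm heavy chain, came closest to absence, with 0.0462, 0.187 and 0.0941 TPM in tpt10b, against 1.86, 3.47 and 2.39 TPM in WT. These levels rested on 51 to 166 reads per tpt10b library and 1742 to 3031 per WT library. DHC3 had 0.398, 0.396 and 0.317 TPM in tpt10b, against the 2.17 to 2.87 TPM of WT (-1.34 ± 0.20, adjusted p = 0.00011).

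Length went with this difference, in members and in other genes alike. DHC genes measure 10437 to 18453 bp in the deposited table, and the other members 492 to 10520 bp. Among non-member genes, 82.8% of the 186 of at least 10000 bp were lower in tpt10b at 24 h, with a median of -0.65, against 31.3% and -0.20 of the 11471 genes under 3000 bp. The DHC median of -0.67 thus lay at the level of other long genes. At 0 h, by contrast, non-member long and short genes hardly differed, with medians of 0.39 and 0.40, while DHC members stood at -0.44. Across the 67 members, the Pearson correlation of the genotype difference with log2 length was 0.50 at 0 h, -0.58 at 24 h and 0.62 at 48 h, values that share the same genes and libraries. How far length, and what in a long gene's reads or RNA goes with it, accounts for the 24 h difference was not tested.

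**Figure D5:**
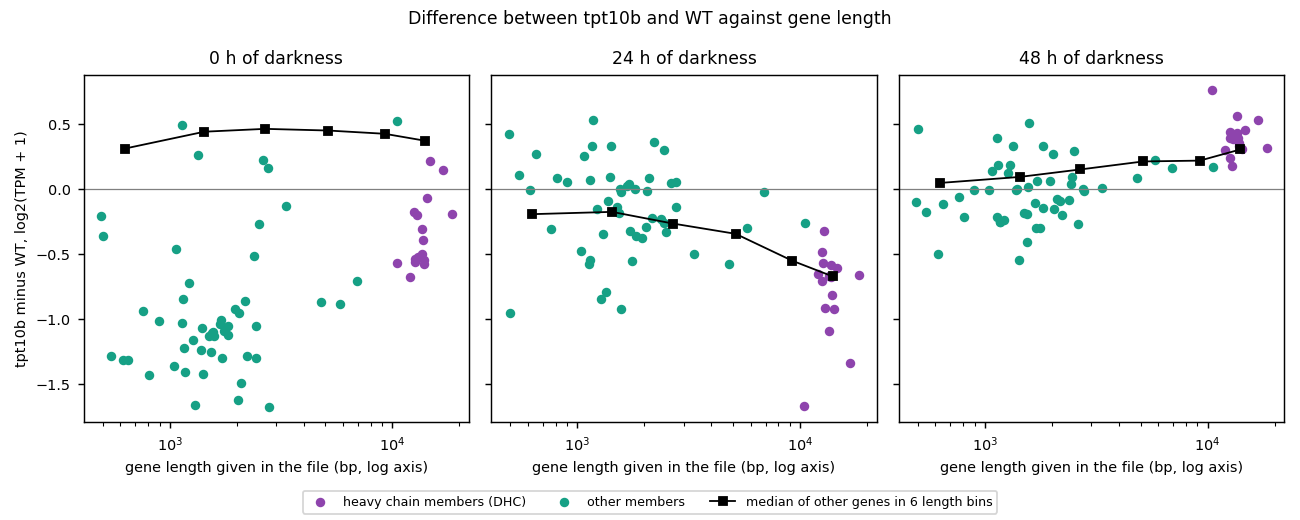
Difference between tpt10b and WT on the log2(TPM + 1) scale against gene length in bp (log axis) at 0 h, 24 h and 48 h, for heavy chain members (purple), other members (green) and the median of non-member genes in 6 length bins (black squares). At 24 h the black line falls with length and the heavy chains lie on both sides of its right end, whereas at 0 h the line is nearly flat at about 0.4.

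Outside the heavy chains, 9 members were lower in tpt10b at 24 h: ODA5, ODA7B, ODA16, DII3, IDA5, DRC3, DRC7, DRC8 and CPC2. DRC8 (Cre16.g676645) had 2.40, 5.21 and 4.73 TPM in tpt10b, against 7.42, 10.6 and 7.92 TPM in WT (-0.95 ± 0.23, adjusted p = 0.00379). DRC3 had 4.58, 5.80 and 2.72 TPM in tpt10b, against 7.79, 9.66 and 9.20 TPM in WT (-0.92 ± 0.25, adjusted p = 0.00897), and its call was lost without tpt10b 24 h replicate 3 (-0.68, adjusted p = 0.0566). IDA5 had 380.0, 607 and 467 TPM in tpt10b, all below the WT values, and was called at -0.58 ± 0.15 (adjusted p = 0.00565), but not after rescaling (-0.23, adjusted p = 0.17).

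The radial spoke genes, low in both genotypes by then, mostly did not pass the test at 24 h. Of 17 genes 1 was higher and 0 were lower, with a median of 0.07. After rescaling 4 were higher, beside 2869 of all 14731 tested genes, a similar share. RSP20 had 279.9, 250.1 and 270.4 TPM in tpt10b, against 198, 178 and 219 TPM in WT, with no overlap (0.43 ± 0.13, adjusted p = 0.0151). DRC5 was the other member called higher, with 11.6, 5.86 and 8.05 TPM in tpt10b against 5.47, 5.02 and 5.56 TPM in WT (0.54 ± 0.20, adjusted p = 0.043). That call rested on replicate 1 in size, since the difference without it was 0.31 (adjusted p = 0.218), and it was also lost without tpt10b replicate 3 or any WT 24 h replicate and with no filter. RSP2 (Cre10.g427300) was as uneven, with 13.6, 5.25 and 10.02 TPM in tpt10b against 5.86, 6.36 and 8.28 TPM in WT, and was not called. Without tpt10b 24 h replicate 2 the members called higher numbered 4, and without WT 24 h replicate 2 they numbered 0. In tpt10b at 24 h replicate 1 gave the highest level of the group for 40 of the 67 members, against 40.3% of all tested genes.

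At 48 h of darkness the test found no difference between the genotypes in any member. By limma 0 were higher and 0 lower, beside 5.20% higher and 1.39% lower of all tested genes. The counts were also 0 and 0 after rescaling and by limma-voom, which scales libraries by factors of the same kind. At an unadjusted p under 0.05, 13 of 67 members differed, against 26.6% of all tested genes. The median member differed by 0.06 and the median of all genes by 0.12. Every tpt10b library lay above every WT library in 13 members and below in 7, beside 26.1% and 9.08% of all. The WT 48 h group was wide for these genes, with replicate 2 low in the heavy chains: DHC2 had 5.33, 5.63 and 6.25 TPM in tpt10b, against 5.43, 0.863 and 4.20 TPM in WT. DHC15 likewise had 12.8, 14.01 and 14.8 TPM in tpt10b, against 13.1, 5.69 and 9.83 TPM in WT. DHC14 had 19.3, 19.0 and 20.7 TPM in tpt10b, against 18.5, 11.4 and 14.9 TPM in WT. Leaving out WT 48 h replicate 1, the library with the higher heavy chain levels, gave 10 members higher and 1 lower in tpt10b, and leaving out any other library of the 48 h groups gave 0 and 0.

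In tpt10b the heavy chains were higher at 48 h of darkness than at 24 h. All 16 DHC genes were called higher, with a median of 1.24, and all 16 remained so after rescaling. Of all 14731 tested genes, 5344 were higher after rescaling. Over the 67 members 37 were higher and 2 lower, beside 46.5% higher and 20.2% lower of all tested genes. DHC2 stood at 5.33 to 6.25 TPM at 48 h, against 0.0462 to 0.187 TPM at 24 h (2.60 ± 0.32, adjusted p = 1.94e-06). DHC15 stood at 12.8 to 14.8 TPM at 48 h, against 3.10 to 3.72 TPM at 24 h (1.78 ± 0.20, adjusted p = 8.23e-07). The radial spokes moved little: 2 of 17, RSP7 and RSP5, were higher, with a median of 0.30, and DRC5 was lower (-0.75). Other long genes moved the same way, with a median of 0.53 in the 186 non-members of at least 10000 bp and 0.23 in those under 3000 bp. In WT over the same interval 15 members were higher and 3 lower, beside 16.8% and 24.7% of all, with 8 radial spoke genes and 1 DHC gene among the higher. Without WT 48 h replicate 2 these counts were 25 and 0.

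The ratio of heavy chain to spoke transcripts did not overlap between the genotypes at any time, a description to which no test was applied. The heavy chain sum includes DHC16, which by its known role is not axonemal. The ratio of the summed TPM of the 16 DHC genes to that of the radial spoke genes other than RSP20 was 0.201 ± 0.00886, 0.207 ± 0.0432 and 0.585 ± 0.0291 in tpt10b at 0 h, 24 h and 48 h. In WT it was 0.113 ± 0.00506, 0.432 ± 0.0392 and 0.381 ± 0.127 (SD, n = 3 each). At 0 h the tpt10b libraries, at 0.195 to 0.211, lay above the WT libraries, at 0.109 to 0.119. At 24 h the order was turned round, with 0.159 to 0.243 in tpt10b against 0.400 to 0.475 in WT. At 48 h the tpt10b libraries, at 0.553 to 0.610, again lay above those of WT, at 0.476, 0.238 and 0.430, the lowest being replicate 2. The ratio sets long genes against short ones. In non-member genes of at least 10000 bp and under 3000 bp, the median genotype differences were 0.39 and 0.40 at 0 h. They were -0.65 and -0.20 at 24 h, and 0.29 and 0.09 at 48 h. How far length enters the ratio was not tested.

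Axonemal genes outside the symbol rule moved with the members. Of 20 tested genes for dynein light chains, docking and assembly proteins, 16 were lower in tpt10b at 0 h and 1, HSP90A, was higher. DCC1 and DCC2, subunits of the outer arm docking complex, differed by -1.06 and -1.34. Of 20 axonemal ruler, modifier and nexin link genes, 19 were lower and 0 higher. FAP59 and FAP172, the rulers that set the axonemal repeat, differed by -1.01 and -1.09. Of 20 other central pair genes 19 were lower and 1, FAP139, was higher, and neither HSP90A nor FAP139 was called higher after rescaling. KLP1, a kinesin of the C2 microtubule, and HYDIN1 differed by -1.11 and -0.68. In WT after 24 h of darkness 19, 19 and 20 genes of these lists were lower, and MIA2 alone was higher among them (1.66).

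Genes of cell division and of gametes were counted because flagella are taken down for division and gametes are flagellated. Of 27 cell division genes 4 were higher and 3 lower in tpt10b at 0 h, with a median of -0.19, but after rescaling 0 were higher and 17 lower, with a median of -0.58. Of 14 gamete and zygote genes 5 were higher and 2 lower, with a median of 0.33, but after rescaling 0 were higher and 3 lower, with a median of -0.14. Over all tested genes 50.8% were higher and 9.19% lower before rescaling. After rescaling 1948 of the 14731 were higher and 3111 lower. At 24 h against 0 h, 18.1% of all tested genes were higher and 57.1% lower in tpt10b, and 40.6% and 25.8% in WT. In the same comparison the gamete and zygote genes also went both ways: 5 were higher and 7 lower in tpt10b, and 6 were higher and 5 lower in WT. Their summed levels at 0 h overlapped between the genotypes: 680.2 to 849.8 TPM in tpt10b against 626 to 951 TPM in WT for cell division, and 497 to 613 TPM in tpt10b against 505 to 632 TPM in WT for gametes and zygotes. Their part in the lower level of the members was not tested.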

How the data were processed

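Total RNA was reverse transcribed with random hexamers and sequenced as read pairs, per the labels' protocols. HISAT2 2.0.5 and StringTie 1.3.3b appear in the submitters' processing notes, with no role stated, and the annotation was CC-4532 v6.1, per the file headers. Neither the counting tool nor its strand setting is given in the sources used here, so genes on opposite strands that overlap could share reads. The deposited values are TPM computed by the authors. Multiplying TPM by gene length and by a constant for each library gave values that were whole to within 0.01 for 100% of genes, that is 59603478 to 87965038 reads per library. Lengths are multiples of 3 for 94.4% of genes and are close to coding lengths. Intervals and p-values cover the spread between samples only.

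Groups came from the sample titles; the descriptions number the tpt10b 48 h replicates otherwise. Genes that reached 1 TPM in 3 or more of the 18 libraries were tested. log2(TPM + 1) was computed from the deposited TPM and fitted with limma 3.58.1 in R 4.3.3 (1 mean per group, empirical Bayes with trend, 11 contrasts), with Benjamini-Hochberg adjustment over all tested genes and a threshold of 0.05. The test was first checked on simulated data in which a small share of genes changed, as many up as down. That check did not cover a shift of many genes at once, as in several of these contrasts. A fold change on this scale understates changes of low genes. No 2 replicates agreed within sampling noise. Values per library are given for up to 3 members with the largest change each way per comparison (adjusted p under 0.05 and a group mean of 5 TPM or more; no such minimum for interactions) and for DHC13, DHC14 and DHC15; other members are named by role, and DIC1, DII1 and ODA16 were picked after their values were seen. The members and lists were chosen with earlier results of these data known. Alternatives were a pseudocount of 0.1 TPM, no filter, median-of-ratios rescaling, a replicate block, limma-voom on the recovered reads, and each library left out. For limma-voom the library sizes were set by median-of-ratios factors of the reads, so it is not independent of the rescaling. The comparison with long and short genes was added after the data were seen. Of the members, 66 of 67 matched a RefSeq v5.5 locus, used only for neighbours. Python 3.11.15, numpy 2.4.6, pandas 2.3.3 and matplotlib 3.10.9 were used.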

Additional observations from a re-analysis of the deposited data

Results flagged for a closer look

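For 10 members the change in darkness differed between tpt10b and WT by the interaction test of limma, adjusted over all tested genes, and these were the largest each way. At 24 h the change in tpt10b minus that in WT was 1.95 for DRC5, 1.76 for DRC4 and 1.65 for RSP2, and -1.49 for DHC3, -1.10 for DHC2 and -1.07 for IDA5. At 48 h it was 1.90 for PF13, 1.85 for ODA7A, 1.66 for RSP17 and -0.35 for CPC2. PF13, ODA7A and RSP17 are the members with the largest fall in tpt10b at 0 h, and the same 0 h libraries enter the interaction. The value of CPC2 rests on levels under 1.5 TPM and on a gene that passed the filter through tpt10b 0 h alone, turned to 0.0878 by limma-voom and was not called after rescaling (-0.12). The value of IDA5 was -0.17 after rescaling and that of DHC2 was -0.52, neither of them called. DHC2 and DHC3 are long genes, and before rescaling non-members of at least 10000 bp had a median of -1.02 at 24 h (quartiles -1.43 and -0.74).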

How the results depend on the processing

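After rescaling, the members called in each contrast were as follows where they moved by over 1.5 times: 1 higher at 0 h, 7 higher at 24 h, 1 lower between 24 h and 48 h in WT, 1 higher at 24 h against 0 h and 6 lower between 24 h and 48 h in tpt10b, and in the interactions 50 positive and 2 negative at 24 h and 0 negative at 48 h. By limma-voom they were 1 higher at 0 h, 6 higher and 15 lower at 24 h, 24 higher between 24 h and 48 h in WT, 1 higher at 24 h against 0 h and 5 lower between 24 h and 48 h in tpt10b, and 4 negative at 24 h and 0 negative at 48 h in the interactions. A pseudocount of 0.1 TPM gave 0 negative at 48 h, and no filter gave 1 higher at 24 h. IDA5 at 0 h was -0.0587 after rescaling and -0.0588 by limma-voom, and CPC2 in the 48 h interaction was 0.0878 by limma-voom. Scale accounts for the first change by construction, and limma-voom shares that kind of scaling. The other causes were not tested.

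With each library of the groups compared left out in turn, the counts ran from 1 to 2 higher at 0 h, 0 to 4 higher at 24 h, and 0 to 10 higher and 0 to 1 lower at 48 h. They ran from 1 to 2 higher at 48 h against 0 h, and 11 to 25 higher and 0 to 4 lower between 24 h and 48 h, in WT. They ran from 1 to 4 lower between 24 h and 48 h in tpt10b, and 5 to 9 negative at 24 h and 0 to 1 negative at 48 h in the interactions. The 25 came without WT 48 h replicate 2, the 10 without WT 48 h replicate 1 and the 5 without tpt10b 0 h replicate 1. The 4 higher at 24 h and the 4 lower between 24 h and 48 h in tpt10b both came without tpt10b 24 h replicate 2. Without any 1 of the tpt10b 0 h libraries CPC2 did not pass the filter, so it left the counts.

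The replicate numbers did not pair the libraries: of 45 pairs with the same number 6 had correlated deviations over 0.1, and 1 of 18 libraries resembled its own number most. With the replicate block 1 member was higher at 24 h and 1 was lower between 24 h and 48 h in WT; no other count moved by over 1.5 times. TPM carries no absolute scale, and 3 libraries a group limit the precision. Some levels under 1 TPM rest on few reads, as in PF22 with 26 to 191 in tpt10b at 24 h. In long genes they rest on more, as in DHC3 with 565 to 706 in that group.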
